A study of Canis lupus familiaris with 29 samples.

Results

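Collagens are the triple-helical proteins of the extracellular matrix, each built from 3 alpha chains, and their chains carry the gene symbols COL, a type number, A and a chain number. Here they were the genes of the deposited canine count table whose name has exactly that form: 42 of 30951 genes in the table, of which 18239 have a name and 24051 have at least 1 count. By the kind of structure they form, 11 are fibrillar, 6 are of basement membranes (type IV) and 25 are other collagens. The other collagens comprise 10 fibril-associated, 4 beaded filament, 4 transmembrane and 3 short-chain network chains, 1 multiplexin, 1 anchoring fibril chain and 2 remaining chains. COL6A2 and COL18A1 have no entry of that name, so nothing is given for them. The COL6A1 model spans 146315 bases, so reads of an unnamed neighbor such as COL6A2 cannot be told apart from its own. The COL4A2 model holds 987 exon bases and that of COL9A3 1468, short for chains of this size, so their levels per length are uncertain.

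Fibrillar collagens, with types I and III as the bulk in most tissues, bear load in the stroma and are made mostly by fibroblasts and related mesenchymal cells. Type IV collagens form the sheet-like network under endothelium and around nests of endocrine cells, and most cell types that touch a basement membrane make them. Fibril-associated, beaded filament and transmembrane collagens connect fibrils with each other, with basement membranes or with cells.

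The series holds RNA sequencing of 29 canine samples, each from a separate animal. They are 10 normal adrenal medullas (NAMs) and tumors named pheochromocytoma and paraganglioma (PPGLs), 7 of group 1 and 12 of group 2. By the paper, all PPGLs were adrenal pheochromocytomas except 1 paraganglioma, which lies outside the adrenal. The NAMs came from healthy research dogs euthanized for other reasons and were snap-frozen. The PPGLs came from client-owned dogs of several clinics, taken at surgery or after euthanasia, and were snap-frozen or kept in RNAlater. Origin, breed, age and sampling therefore cannot be told apart from tissue in any comparison with NAMs. The paper reports a tumor thrombus in most dogs of the smaller PPGL group. It proposes that pieces taken from the thrombus rather than the adrenal mass may have held fewer cortical cells. Sampling may thus differ between groups 1 and 2 as well, and its part in their collagen differences was not tested. Groups 1 and 2 were drawn by the authors from a principal component analysis of these same samples, after they had left out 2 outlying tumors, so differences between the groups describe that split and their p-values are too small to an unknown extent. The strand setting of the read counting and its handling of reads with several matches are not given in the sources used here.

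The NAM libraries held 19258054 to 35918182 counts each, those of PPGLs 18208718 to 31919833. Levels below are TMM-normalized CPM unless given per kilobase of exon (RPKM). A count of 3, taken as the lowest readable value, corresponded to 0.0779 to 0.164 CPM among the NAMs, and among the PPGLs to 0.0895 to 0.175. Calls rest on edgeR's quasi-likelihood (QL) F test with Benjamini-Hochberg adjustment over all genes tested, at an FDR-adjusted p below 0.05, and below 0.1 between the PPGL groups. All comparisons with NAMs share the same 10 NAMs.

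1 library stood apart in collagen levels. Replicate 11 of PPGL group 2 had the highest CPM of all 29 samples in 18 of the 37 collagens tested between PPGLs and NAMs, and the next such sample, replicate 4 of PPGL group 1, in 5. Its summed collagen level was 6315 RPKM, and the next-highest sample, replicate 4 of PPGL group 2, had 1843 RPKM. Calls, median log2 FCs of collagen classes and highest summed levels that rest on this tumor are therefore given with and without it, while the ranges of single genes include it, and in PPGLs against NAMs and between the PPGL groups each other library was also left out in turn. The NAMs were not pure medulla: 10 of 11 adrenal cortex markers were found, and their summed level was 8624 to 40905 RPKM in NAMs, 64.3 to 1213 in PPGL group 1 and 181 to 19098 in PPGL group 2, with STAR the most abundant in all 3 groups, and 9 were called lower in PPGLs than in NAMs. Chromaffin cell markers, 14 of 15 found, summed to 8109 to 36877 RPKM in NAMs, 4862 to 41957 in group 1 and 8774 to 38786 in group 2, with CHGB the most abundant in NAMs and group 2 and DBH in group 1, and of these SYP, PHOX2A, HAND2 and CYB561 were called higher in PPGLs and PNMT lower. Beside these calls, 22.3% of all genes tested were called higher in PPGLs and 15.2% lower. Cortex markers CYP11A1, MC2R, HSD3B2 and MRAP were at 0 in at least 1 sample of group 1. The part of cortex and of chromaffin cell content in the collagen results was not tested.

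Summed over class members, fibrillar collagens reached 62.3 to 151 (median 94.4) RPKM in NAMs, 82.2 to 522 (median 150.1) in PPGL group 1 and 106 to 4994 (median 224) in PPGL group 2. In 3 of 7 tumors of group 1 and 10 of 12 of group 2 the fibrillar sum exceeded that of every NAM, and the groups overlapped. Without replicate 11 of group 2, the highest fibrillar sum of group 2 was 1364 RPKM. Basement membrane collagens summed to 42.9 to 98.4 (median 59.6) RPKM in NAMs, 71.2 to 345 (median 167) in group 1 and 41.9 to 567.9 (median 142) in group 2, where the highest without replicate 11 was 261. Their sum lay above every NAM in 5 tumors of group 1 and 7 of group 2, and below every NAM in 1 of group 2. The other collagens summed to 76.1 to 144 (median 115) RPKM in NAMs, 74.0 to 229 (median 149) in group 1 and 63.7 to 753 (median 119) in group 2 (at most 313 without replicate 11). Of these sums, 4 of group 1 and 4 of group 2 lay above every NAM and 1 and 2 below. The log2 ratio of fibrillar to basement membrane sums was 0.36 to 1.18 in NAMs (median 0.58), -1.2 to 1.26 in group 1 (median -0.08) and 0.23 to 3.14 in group 2 (median 1.23). Without replicate 11 the highest ratio of group 2 was 2.39 and the median 1.14. Fibrillar collagens exceeded basement membrane collagens in 10 of 10 NAMs, 3 of 7 tumors of group 1 and 12 of 12 of group 2. Without COL4A2, whose level per length is uncertain, they did so in 10 of 10, 5 of 7 and 12 of 12, with median log2 ratios of 1.27, 0.58 and 1.64. The basement membrane sum without COL4A2 lay above every NAM in 5 tumors of group 1 and 9 of group 2.

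By share of the class sum in RPKM (median per group), the leading fibrillar chain was COL1A2 (40.5%) in NAMs, COL3A1 (28.0%) in PPGL group 1 and COL1A2 (27.4%) in group 2. In the PPGL groups the next chain was close, COL1A2 (27.5%) in group 1 and COL3A1 (26.2%) in group 2, with overlapping ranges. COL4A1 led the basement membrane class in each group, with 54.6%, 67.1% and 65.2% of its summed RPKM. Among the other collagens, COL22A1 (31.1%) led in NAMs and COL22A1 (34.6%) in group 1, but COL6A1 (20.02%) in group 2. The median levels of COL1A2 and COL22A1 in NAMs, 36.4 and 35.0 RPKM, were the highest of all 42 members there.

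**Figure D1:**
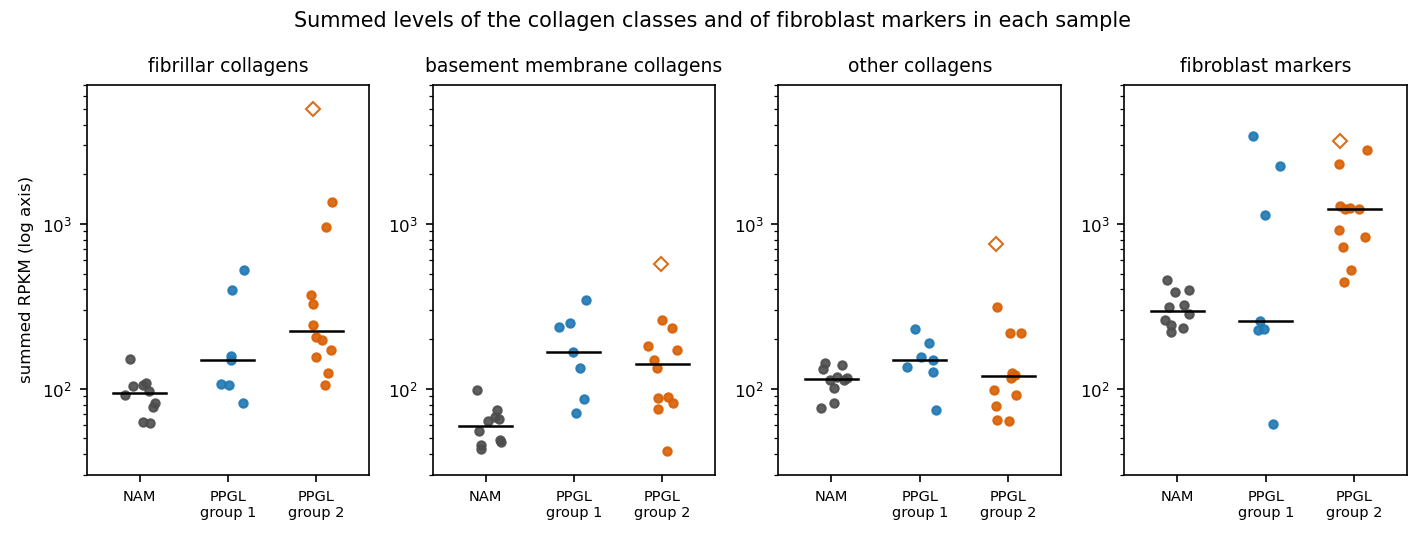
Summed collagen and fibroblast marker levels per sample. Summed TMM-normalized RPKM of fibrillar, basement membrane and other collagens and of fibroblast markers (THY1 included) per sample of 10 NAMs, 7 tumors of PPGL group 1 and 12 of group 2, on a log axis. Lines mark medians, and the open diamond marks replicate 11 of PPGL group 2.

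In these bulk samples, fewer cells of a type and less RNA per cell cannot be told apart, and the same holds for more. Collagen levels are therefore given beside markers of the cells that make them. All 13 of 13 fibroblast markers were found, and their summed level was 219.7 to 459 RPKM in NAMs, 61.1 to 3407 in PPGL group 1 and 446 to 3196 in PPGL group 2 (at most 2792 without replicate 11). It lay above every NAM in 3 of 7 tumors of group 1 and 11 of 12 of group 2. THY1, which neurons also express, was the most abundant in each group, with a median of 983 RPKM in group 2 and 239 in group 1. Without THY1 the other 12 summed to 48.9 to 117 RPKM in NAMs, 19.7 to 199 in group 1 and 33.2 to 2268 in group 2, where replicate 11 was the highest and the next tumor had 426. This sum lay above every NAM in 2 tumors of group 1 and 6 of group 2 and below every NAM in 4 and 3. At 0 in at least 1 sample were POSTN and MFAP5 in NAMs, PDPN and MFAP5 in group 1, and MFAP5 and DPT in group 2. Of the 12 tested, 5 were called higher in PPGLs than in NAMs (FAP, THY1, LUM, POSTN, PI16) and 1 lower (TCF21), and without replicate 11 of group 2 the counts were 3 and 3. Of all genes tested, 22.3% were called higher and 15.2% lower with all samples. Pericyte and smooth muscle markers, 11 of 11 found, summed to 254 to 1684 RPKM in NAMs, 159 to 4304 in group 1 and 514 to 4238 in group 2 (at most 2334 without replicate 11), with RGS5 the most abundant and none at 0. Of these, 5 were called higher in PPGLs (ACTA2, CNN1, RGS5, NOTCH3, ABCC9), and without that tumor 2 higher and 1 lower. These counts are to be read beside the same shares of all genes.

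Endothelial markers, 11 of 11 found and none at 0, summed to 213 to 484 RPKM in NAMs, 101 to 729 in group 1 and 152 to 599.7 in group 2, with PLVAP the most abundant, and 4 were called lower in PPGLs (VWF, TEK, TIE1, KDR). Schwann and sustentacular cell markers, 9 of 9 found, summed to 38.8 to 148 RPKM in NAMs, 9.17 to 437 in group 1 and 8.10 to 83.9 in group 2, with GFRA3 the most abundant. S100B was at 0 in a sample of each PPGL group, and FOXD3 in a sample of group 2. Leukocyte markers, 10 of 11 found, summed to 211 to 406 RPKM in NAMs, 188 to 768 in group 1 and 119 to 547 in group 2 (at most 373 without replicate 11), with CD79A the most abundant although the B cell marker MS4A1 and the T cell marker CD3D were at 0 in some samples. Of the 8 leukocyte markers tested, CD3E and CD2 were called higher in PPGLs and CSF1R lower. Beside these endothelial and leukocyte calls, 22.3% of all genes tested were called higher and 15.2% lower. The part of all these cell types in the collagen results was not tested.

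Between PPGLs and NAMs, 37 of 42 collagens were tested and 5 had too few counts (COL6A6, COL9A3, COL19A1, COL25A1, COL26A1). Of the 37, 19 were called higher in PPGLs, where 22.3% of all 14766 genes tested were, and 2 were called lower, where 15.2% of all genes were. 4 collagens were called higher with a log2 FC over 3 (COL1A1, COL3A1, COL6A5, COL11A1), as were 2.07% of all genes. The median log2 FC of the collagens was 1.26, beside 0.13 for all genes tested. By sign, 28 had a positive and 9 a negative log2 FC, with COL4A6 (-0.01) turning to 0.07 under scaling by library size only. Without replicate 11 of PPGL group 2, 16 were called higher (COL6A1, COL6A3 and COL8A1 no longer) and 3 lower (COL8A2 as well), the median was 1.06, and none of the collagens called higher had a log2 FC over 3.

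By class, 7 of 11 fibrillar collagens were called higher and 1 lower in PPGLs, with a median log2 FC of 2.04, and of 1.63 without replicate 11 of group 2. Of the 6 basement membrane collagens, 3 were called higher and the others did not pass the test, with a median of 1.25 with that tumor and 1.25 without it. Among 20 other collagens, 9 were called higher and 1 lower, with a median of 1.00; without that tumor these were 6, 2 and 0.82. The class counts are to be read beside the 22.3% of all genes called higher and the 15.2% called lower. In the Mann-Whitney U-test, COL1A2, COL6A1, COL6A3, COL8A1, COL11A1 and COL14A1 lost their calls, and COL8A2, COL20A1 and COL28A1 were called lower as well.

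**Figure D2:**
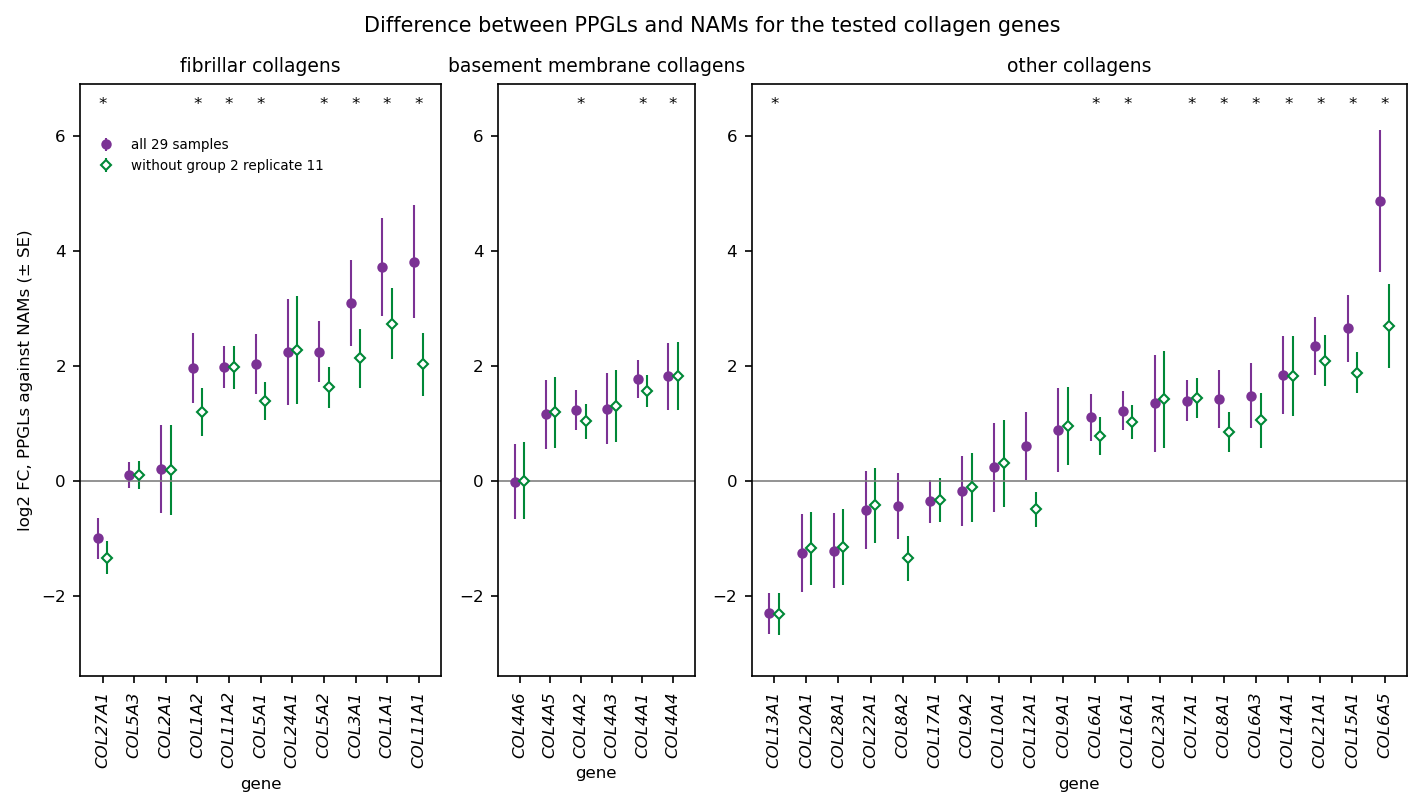
Log2 FC of collagens in PPGLs against NAMs. Log2 FC with SE of the 37 collagens tested, by class, for all 29 samples (filled circles) and without replicate 11 of PPGL group 2 (open diamonds). Asterisks mark an FDR-adjusted p below 0.05 in all samples (edgeR's QL test).

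COL1A1 and COL1A2 encode the chains of type I collagen, and COL3A1 that of type III, which lies in the same fibrils. COL1A1 (ENSCAFG00000017018, chromosome 9, 26183852 to 26199927 of CanFam3.1) stood at 30.5 to 125 CPM in NAMs (median 53.1), 21.1 to 855 in PPGL group 1 (median 125) and 57.7 to 7777 in PPGL group 2 (median 275). 12 of 19 PPGLs (4 of group 1 and 8 of group 2) lay above every NAM and 1 of group 1 below, with 1 very high value (7777 CPM in replicate 11 of group 2) and the next at 2118 CPM. Its log2 FC in PPGLs against NAMs was 3.72 (FDR-adjusted p = 0.0011, SE 0.85), and 2.74 (FDR-adjusted p = 0.000913) without that tumor. COL1A2 (ENSCAFG00000002069, chromosome 14, 19883868 to 19919527) ranged 109 to 265 CPM in NAMs (median 161), 68.2 to 635 in PPGL group 1 (median 167) and 152 to 5700.5 in PPGL group 2 (median 309.6). 9 of 19 PPGLs (2 of group 1 and 7 of group 2) lay above every NAM and 2 below, so the overlap was wide. It rose by a log2 FC of 1.97 (FDR-adjusted p = 0.0117, SE 0.61) with all tumors and 1.21 (FDR-adjusted p = 0.0225) without replicate 11 of group 2. COL3A1 (ENSCAFG00000014812, chromosome 36, 30488488 to 30536765) was measured at 65.7 to 173 CPM in NAMs (median 90.8), 50.3 to 637 in PPGL group 1 (median 214) and 103.1 to 7960.2 in PPGL group 2 (median 251). Again a majority of tumors was high: 12 of 19 PPGLs (4 of group 1 and 8 of group 2) lay above every NAM, and 1 below. The COL3A1 log2 FC was 3.09 (FDR-adjusted p = 0.00189, SE 0.75), and 2.14 (FDR-adjusted p = 0.00161) without replicate 11 of group 2, below the bound of 3.

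COL5A1, COL5A2, COL11A1 and COL11A2 encode minor fibrillar chains that seed fibrils and set their diameter. COL5A1 (chromosome 9, 50770277 to 50854728) was found at 10.3 to 23.2 CPM in NAMs (median 14.6), 9.88 to 65.5 in PPGL group 1 (median 22.9) and 12.2 to 474 in PPGL group 2 (median 44.9). 12 of 19 PPGLs (3 of group 1 and 9 of group 2) lay above every NAM and 1 below, so the groups overlapped. COL5A1 rose with a log2 FC of 2.04 (FDR-adjusted p = 0.00293, SE 0.52), and of 1.39 (FDR-adjusted p = 0.00175) without replicate 11 of group 2. COL5A2 (chromosome 36, 30540229 to 30691564, beside COL3A1 at a distance of 3464 bases) had 22.5 to 52.6 CPM in NAMs (median 32.8), 24.7 to 222 in PPGL group 1 (median 139.8) and 29.1 to 1267 in PPGL group 2 (median 120.2). 14 of 19 PPGLs (6 of group 1 and 8 of group 2) lay above every NAM and none below, so both PPGL groups were shifted up with some overlap. COL5A2 rose by 2.25 (FDR-adjusted p = 0.00156, SE 0.53) on the log2 scale, and by 1.63 (FDR-adjusted p = 0.000781) without that tumor. COL11A1 (chromosome 6, 47425307 to 47621012) lay at 1.05 to 3.86 CPM in NAMs (median 2.32), 0.894 to 28.1 in PPGL group 1 (median 3.85) and 1.09 to 463 in PPGL group 2 (median 8.30). 11 of 19 PPGLs (3 of group 1 and 8 of group 2) lay above every NAM and 1 below, and the value of 463 CPM was that of replicate 11 of group 2, far over the next-highest of group 2 (28.5). Without it the log2 FC went from 3.82 (FDR-adjusted p = 0.00317, SE 0.99) to 2.03 (FDR-adjusted p = 0.00418).

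COL11A2 (chromosome 12, 2627828 to 2655814) showed 0.567 to 3.12 CPM in NAMs (median 1.60), 1.198 to 19.5 in PPGL group 1 (median 2.89) and 3.09 to 14.5 in PPGL group 2 (median 5.63). 14 of 19 PPGLs (3 of group 1 and 11 of group 2) lay above every NAM and none below, and the lowest tumor of group 2 lay just under the highest NAM. Its log2 FC was 1.98 (FDR-adjusted p = 0.000132, SE 0.36), and 1.98 (FDR-adjusted p = 0.000159) without replicate 11 of group 2. COL24A1 (chromosome 6, 61931900 to 62316899), a fibrillar chain known from bone, spread over 8.49 to 40.7 CPM in NAMs (median 16.8), 1.13 to 66.0 in PPGL group 1 (median 10.2) and 0.631 to 558 in PPGL group 2 (median 35.5). Its tumors fell on both sides: 7 of 19 PPGLs (1 of group 1 and 6 of group 2) lay above every NAM and 7 below. COL24A1 did not pass the test, with a log2 FC of 2.24 (FDR-adjusted p = 0.0542, SE 0.92), but was called when leaving out PPGL group 1 replicate 1 (2.32, 0.0458), 2 (2.32, 0.0397), 3 (2.31, 0.0491), 4 (2.31, 0.0489), 7 (2.32, 0.0444), PPGL group 2 replicate 6 (2.32, 0.0452), 7 (2.32, 0.0441), 9 (2.32, 0.0415) or 10 (2.32, 0.0383); each pair of brackets holds the log2 FC and FDR-adjusted p without that library. COL2A1 (cartilage type II) had at most 2.17 CPM in NAMs and 4.38 in PPGLs and a log2 FC of 0.22 (FDR-adjusted p = 0.847, SE 0.76). COL5A3 was abundant in all groups, at 23.0 to 58.0 CPM in NAMs (median 42.4), 22.0 to 93.0 in PPGL group 1 (median 41.9) and 20.7 to 79.8 in PPGL group 2 (median 37.7), with overlapping ranges and a log2 FC of 0.10 (FDR-adjusted p = 0.757, SE 0.23). Without PPGL group 1 replicate 4, COL5A3 had 0.01.

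COL27A1 (chromosome 11, 68420263 to 68546947), a fibrillar chain known from cartilage, was the fibrillar collagen called lower in PPGLs. It stood at 4.78 to 8.65 CPM in NAMs (median 6.08), 0.7 to 3.19 in PPGL group 1 (median 1.97) and 1.58 to 15.5 in PPGL group 2 (median 2.54). 15 of 19 PPGLs (7 of group 1 and 8 of group 2) lay below every NAM, all of group 1 among them, and 1 lay above, which was replicate 11 of group 2. COL27A1 fell with a log2 FC of -1.0 (FDR-adjusted p = 0.0288, SE 0.36), and with -1.33 (FDR-adjusted p = 0.000586) without that tumor. The COL27A1 call was lost without NAM replicate 9 (-0.95, 0.0501), given with log2 FC and FDR-adjusted p.

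COL4A1 and COL4A2 encode the type IV chains found in nearly all basement membranes, and lie 108509 bases apart on chromosome 22. COL4A1 (ENSCAFG00000006062, chromosome 22, 58512212 to 58588666) had 118 to 306 CPM in NAMs (median 153), 240.2 to 1077 in PPGL group 1 (median 581) and 146 to 1957 in PPGL group 2 (median 478). 13 of 19 PPGLs (5 of group 1 and 8 of group 2) lay above every NAM and none below, with both PPGL groups high. It rose in PPGLs by a log2 FC of 1.77 (FDR-adjusted p = 0.000141, SE 0.33), and of 1.57 (FDR-adjusted p = 7.94e-05) without replicate 11 of group 2. COL4A2 (ENSCAFG00000006069, chromosome 22, 58697175 to 58773297) had 12.6 to 34.9 CPM in NAMs (median 21.4), 20.6 to 126 in PPGL group 1 (median 31.7) and 11.4 to 171 in PPGL group 2 (median 37.2). 9 of 19 PPGLs (3 of group 1 and 6 of group 2) lay above every NAM and 1 of group 2 below, a wider overlap than for COL4A1. The log2 FC of COL4A2 was 1.24 (FDR-adjusted p = 0.00607, SE 0.35), and 1.04 (FDR-adjusted p = 0.00806) without that tumor. Per length, median COL4A1 went from 30.5 RPKM in NAMs to 115 in group 1 and 94.9 in group 2, and median COL4A2 from 21.7 to 32.1 and 37.6 RPKM.

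COL4A3 and COL4A4, chains of specialized membranes such as that of the kidney glomerulus, were scarce. Their models on chromosome 25 overlap by 604 bases, and without the strand setting reads of the overlap cannot be assigned. COL4A4 (chromosome 25, 39854388 to 39976189) lay at 0.0787 to 0.968 CPM in NAMs (median 0.475), 0.235 to 6.70 in PPGL group 1 (median 2.71) and 0.228 to 3.25 in PPGL group 2 (median 0.969), with 3 NAMs at or under 3 counts. 10 of 19 PPGLs (4 of group 1 and 6 of group 2) lay above every NAM and none below. The test gave COL4A4 a log2 FC of 1.83 (FDR-adjusted p = 0.0146, SE 0.58), and of 1.83 (FDR-adjusted p = 0.0159) without replicate 11 of group 2. COL4A3 (chromosome 25, 39975586 to 40104782) lay at 0.343 to 3.08 CPM in NAMs (median 0.715), 0.201 to 10.5 in PPGL group 1 (median 2.92) and 0.113 to 6.16 in PPGL group 2 (median 1.06), with ranges that overlapped in all 3 groups. COL4A3 did not pass the test over all PPGLs (1.26, FDR-adjusted p = 0.109, SE 0.62) but was called in group 1 against NAMs, with 2.06 (FDR-adjusted p = 0.0178, SE 0.67), beside 0.42 (FDR-adjusted p = 0.61, SE 0.59) in group 2. COL4A4 was likewise called in group 1 (2.56, FDR-adjusted p = 0.00221, SE 0.63) and not in group 2 (1.10, FDR-adjusted p = 0.127, SE 0.56). Neither was called between the groups: 1.63 (FDR-adjusted p = 0.2, SE 0.69) for COL4A3, called without PPGL group 2 replicate 9 (2.19, 0.066), and 1.46 (FDR-adjusted p = 0.177, SE 0.59) for COL4A4. On the X chromosome, COL4A5 had 7.56 to 25.5 CPM in NAMs (median 17.4), 0.604 to 178 in PPGL group 1 (median 25.8) and 1.87 to 61.2 in PPGL group 2 (median 26.3) and a log2 FC of 1.16 (FDR-adjusted p = 0.128, SE 0.60). COL4A6 had 5.12 to 10.2 CPM in NAMs (median 8.57), 0.201 to 14.3 in PPGL group 1 (median 1.06) and 0.427 to 37.9 in PPGL group 2 (median 3.99), with 5 PPGLs above and 12 below every NAM, and a log2 FC of -0.01 (FDR-adjusted p = 0.989, SE 0.65).

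COL6A1, COL6A3 and COL6A5 encode chains of beaded filaments, which link cells and fibrils. COL6A1 (chromosome 31, 39301748 to 39448062) had 68.9 to 158 CPM in NAMs (median 102), 53.6 to 287 in PPGL group 1 (median 195) and 71.5 to 1042 in PPGL group 2 (median 122). 9 of 19 PPGLs (4 of group 1 and 5 of group 2) lay above every NAM and 2 below. Its log2 FC was 1.11 (FDR-adjusted p = 0.0315, SE 0.41), and the call was lost without NAM replicate 1 (1.06, 0.0544), 2 (1.06, 0.050013), 4 (1.05, 0.0528), 8 (1.06, 0.0551) or PPGL group 2 replicate 11 (0.78, 0.0581), each with its log2 FC and FDR-adjusted p. COL6A3 (chromosome 25, 47971315 to 48052402) had 10.5 to 38.7 CPM in NAMs (median 25.2), 7.29 to 113 in PPGL group 1 (median 42.9) and 10.3 to 416 in PPGL group 2 (median 27.6). 9 of 19 PPGLs (4 of group 1 and 5 of group 2) lay above every NAM and 2 below, with the median of group 2 inside the NAM range. COL6A3 had a log2 FC of 1.48 (FDR-adjusted p = 0.0378, SE 0.56), a call lost without NAM replicate 2 (1.44, 0.057), 3 (1.44, 0.0584), 4 (1.39, 0.063), 6 (1.51, 0.0518), 7 (1.48, 0.0549), 8 (1.47, 0.0577), 9 (1.46, 0.0572), PPGL group 2 replicate 4 (1.37, 0.0549), 9 (1.30, 0.0597) or 11 (1.06, 0.0803), again with log2 FC and FDR-adjusted p. COL6A5 (chromosome 23, 27596395 to 27721265) had 0.762 to 3.54 CPM in NAMs (median 1.75), 1.10 to 9.90 in PPGL group 1 (median 2.62) and 0.741 to 811 in PPGL group 2 (median 6.66). 9 of 19 PPGLs (3 of group 1 and 6 of group 2) lay above every NAM and 1 below, and the 811 CPM of replicate 11 of group 2 compares with 85.9 in the next tumor of its group. Its log2 FC of 4.88 (FDR-adjusted p = 0.00272, SE 1.24) was the largest of the collagens tested. Without that tumor COL1A1 had the largest, 2.74, and COL6A5 had 2.70 (FDR-adjusted p = 0.00433). COL6A6, beside it on chromosome 23, was not tested in any comparison for lack of counts.

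Fibril-associated collagens sit on fibril surfaces. COL16A1 (chromosome 2, 69410155 to 69459335) had 21.0 to 41.6 CPM in NAMs (median 28.7), 13.1 to 159 in PPGL group 1 (median 35.6) and 29.97 to 235 in PPGL group 2 (median 64.9). 12 of 19 PPGLs (3 of group 1 and 9 of group 2) lay above every NAM and 1 below. It rose by a log2 FC of 1.23 (FDR-adjusted p = 0.00499, SE 0.34), and of 1.03 (FDR-adjusted p = 0.00631) without replicate 11 of group 2. COL21A1 (chromosome 12, 23360372 to 23529713), known from vessel walls, had 1.12 to 3.22 CPM in NAMs (median 1.91), 1.23 to 5.90 in PPGL group 1 (median 4.78) and 2.31 to 40.8 in PPGL group 2 (median 9.23). 16 of 19 PPGLs (5 of group 1 and 11 of group 2) lay above every NAM and none below, the most of any collagen called higher. COL21A1 rose by a log2 FC of 2.35 (FDR-adjusted p = 0.000565, SE 0.50), and of 2.10 (FDR-adjusted p = 0.000617) without that tumor. COL14A1 (chromosome 13, 19011897 to 19248568) had 19.7 to 63.9 CPM in NAMs (median 35.6), 8.50 to 167 in PPGL group 1 (median 24.9) and 21.7 to 1325 in PPGL group 2 (median 80.0). 8 of 19 PPGLs (1 of group 1 and 7 of group 2) lay above every NAM and 3 below, so the tumors spread to both sides. The log2 FC of COL14A1 was 1.84 (FDR-adjusted p = 0.0332, SE 0.68), a call lost without NAM replicate 1 (1.80, 0.0526), 2 (1.78, 0.0555), 6 (1.78, 0.0557), 7 (1.81, 0.0518), 8 (1.77, 0.0569) or PPGL group 2 replicate 5 (0.92, 0.126), each with log2 FC and FDR-adjusted p.

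COL15A1 (chromosome 11, 56025269 to 56130861) encodes a multiplexin that bridges basement membranes and fibrils, and had 11.9 to 27.2 CPM in NAMs (median 16.9), 18.6 to 88.1 in PPGL group 1 (median 74.6) and 12.1 to 948 in PPGL group 2 (median 68.1). 14 of 19 PPGLs (5 of group 1 and 9 of group 2) lay above every NAM and none below, with the medians of both PPGL groups over the highest NAM. It rose by a log2 FC of 2.66 (FDR-adjusted p = 0.000784, SE 0.58), and of 1.89 (FDR-adjusted p = 0.00018) without replicate 11 of group 2. COL7A1 (chromosome 20, 40519378 to 40552935), the anchoring fibril chain, had 3.16 to 26.3 CPM in NAMs (median 11.5), 9.45 to 60.4 in PPGL group 1 (median 26.3) and 10.9 to 70.4 in PPGL group 2 (median 22.5). 9 of 19 PPGLs (4 of group 1 and 5 of group 2) lay above every NAM and none below. COL7A1 rose too, with a log2 FC of 1.40 (FDR-adjusted p = 0.00284, SE 0.36), and of 1.45 (FDR-adjusted p = 0.00179) without that tumor. COL8A1 (chromosome 33, 6285415 to 6425414), a short-chain network collagen of vessels, had 4.42 to 20.7 CPM in NAMs (median 10.5), 4.20 to 29.6 in PPGL group 1 (median 9.94) and 7.50 to 215 in PPGL group 2 (median 22.3). 8 of 19 PPGLs (2 of group 1 and 6 of group 2) lay above every NAM and 1 below, and the next-highest tumor of group 2 after replicate 11 had 51.4 CPM. Without that tumor its log2 FC went from 1.43 (FDR-adjusted p = 0.0252, SE 0.50) to 0.86 (FDR-adjusted p = 0.0559) and the call was lost.

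COL13A1 (ENSCAFG00000013983, chromosome 4, 20837650 to 20986962) encodes a transmembrane collagen of cell-matrix junctions and had the strongest fall of the collagens tested. It stood at 9.80 to 33.4 CPM in NAMs (median 22.4), 0.817 to 6.98 in PPGL group 1 (median 3.23) and 1.16 to 15.4 in PPGL group 2 (median 4.11). 17 of 19 PPGLs (7 of group 1 and 10 of group 2) lay below every NAM, leaving only replicates 1 and 10 of group 2 in the NAM range. The log2 FC was -2.30 (FDR-adjusted p = 1.94e-05, SE 0.36), and -2.31 (FDR-adjusted p = 2.65e-05) without replicate 11 of group 2. COL8A2, a partner of COL8A1, had 4.15 to 24.4 CPM in NAMs (median 7.04), 0.817 to 10.9 in PPGL group 1 (median 1.84) and 0.846 to 67.5 in PPGL group 2 (median 4.49). 11 of 19 PPGLs (6 of group 1 and 5 of group 2) lay below every NAM, while replicate 11 of group 2 had 67.5 CPM against 8.99 in the next tumor of that group. The log2 FC of COL8A2 was -0.43 (FDR-adjusted p = 0.588, SE 0.58) with and -1.34 (FDR-adjusted p = 0.0073) without that tumor, so edgeR's QL test called it lower only without that tumor. COL20A1 had 5.45 to 19.3 CPM in NAMs (median 9.22), 0.179 to 30.7 in PPGL group 1 (median 0.856) and 0 to 14.99 in PPGL group 2 (median 1.33), with 13 PPGLs below every NAM and the highest value in replicate 4 of group 1. Its log2 FC was -1.25 (FDR-adjusted p = 0.146, SE 0.67), and it was called lower without PPGL group 1 replicate 4 (-1.81, 0.0217).

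The remaining collagens tested between PPGLs and NAMs did not pass edgeR's QL test. COL12A1, a fibril-associated chain, had 30.2 to 95.5 CPM in NAMs (median 69.3), 6.61 to 54.5 in PPGL group 1 (median 45.8) and 22.3 to 1134 in PPGL group 2 (median 58.4). Its highest value was that of replicate 11 of group 2, without which the log2 FC changed sign, from 0.61 (FDR-adjusted p = 0.437, SE 0.59) to -0.49 (FDR-adjusted p = 0.208), as it did in group 2 against NAMs, from 1.08 (FDR-adjusted p = 0.141, SE 0.57) to -0.24 (FDR-adjusted p = 0.589). COL28A1, known from peripheral nerve, had 13.2 to 59.5 CPM in NAMs (median 32.0), 0.134 to 63.2 in PPGL group 1 (median 1.85) and 0.339 to 54.1 in PPGL group 2 (median 7.22). 14 of 19 PPGLs (6 of group 1 and 8 of group 2) lay below every NAM, yet some tumors were as high as NAMs, and the log2 FC was -1.21 (FDR-adjusted p = 0.144, SE 0.65). COL9A1 had 0 to 10.7 CPM over all samples and a log2 FC of 0.89 (FDR-adjusted p = 0.35, SE 0.73), and COL9A2 0.282 to 88.5 CPM over all samples and a log2 FC of -0.18 (FDR-adjusted p = 0.844, SE 0.61). Without PPGL group 1 replicate 4, COL9A2 had -0.56. COL10A1 had 0 to 3.72 CPM over all samples and a log2 FC of 0.24 (FDR-adjusted p = 0.835, SE 0.78), and COL17A1 0.143 to 2.75 CPM over all samples and a log2 FC of -0.35 (FDR-adjusted p = 0.489, SE 0.38). Without NAM replicate 3, COL17A1 had -0.03. COL9A3, COL19A1 and COL6A6 were tested in none of the comparisons.

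**Figure D3:**
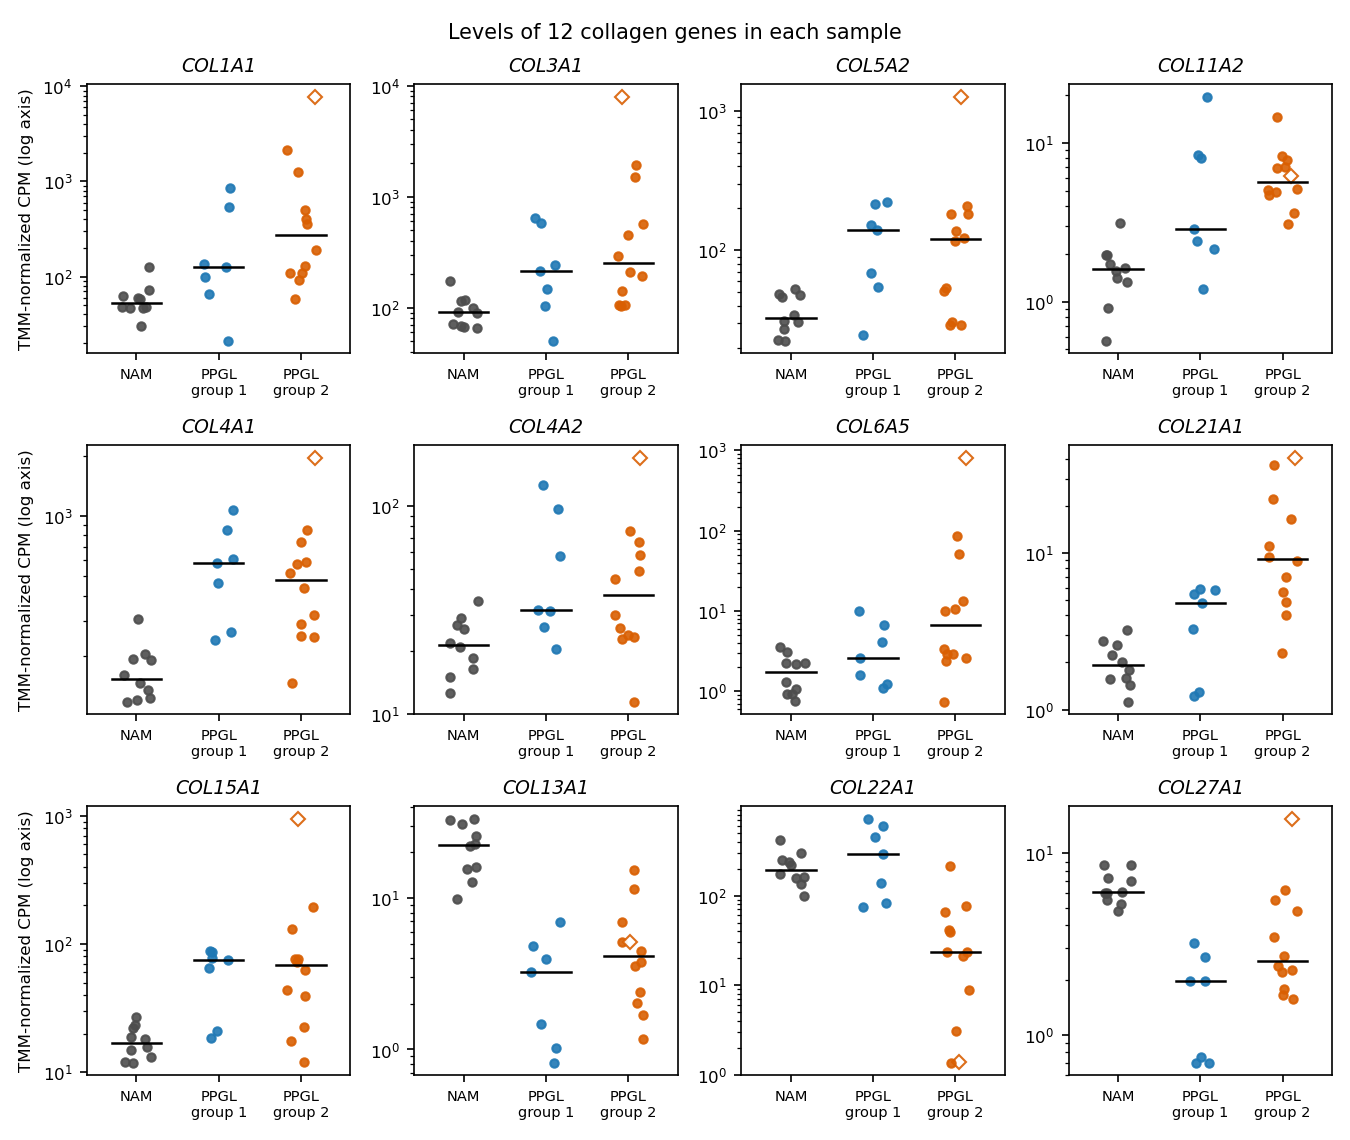
Levels of 12 collagens per sample. TMM-normalized CPM on a log axis, for 10 NAMs, 7 tumors of PPGL group 1 and 12 of group 2. Lines mark medians, and the open diamond marks replicate 11 of PPGL group 2.

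Between the PPGL groups, 37 collagens were tested at an FDR-adjusted p below 0.1. 2 were called higher in group 1 than in group 2 (COL22A1, COL23A1), where 3.97% of all 14666 genes were, and 3 lower (COL6A5, COL21A1, COL25A1), where 2.95% of all genes were. The 5 called were all of the other collagens. The median log2 FC of the 37 was -0.71, beside 0.04 for all genes, with 11 positive and 26 negative values. COL7A1 (-0.07) turned to 0.01 under library size only and COL11A2 (0.00) to -0.01 under DESeq2 size factors. Without replicate 11 of group 2 the median was -0.42, with 2 called higher and 1 lower (COL25A1). An unadjusted p below 0.05 was reached by 15 collagens with all samples and 10 without that tumor, beside 19.4% of all 14666 genes with all samples and 18.2% of 14584 without it. The count called higher was 1 without replicate 2 of group 1. The count called lower was 1 without any of group 1 replicates 1, 3, 4 and 7 or group 2 replicates 4, 5, 9 and 11.

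By class, the median log2 FC of group 1 against group 2 was -1.65 for the 11 fibrillar collagens, and -0.85 without replicate 11 of group 2. It was 0.51 for the 6 basement membrane collagens (0.68 without) and -0.71 for 20 other collagens (-0.42 without). COL1A1 did not pass, with -2.08 (FDR-adjusted p = 0.268, SE 1.02), and -0.89 (FDR-adjusted p = 0.579) without that tumor. COL3A1 did not pass either, with -2.02 (FDR-adjusted p = 0.232, SE 0.92), and -0.86 (FDR-adjusted p = 0.523) without it. Nor did COL4A1, with 0.02 (FDR-adjusted p = 0.989, SE 0.43), and 0.37 (FDR-adjusted p = 0.607) without it. Of the fibrillar collagens, 5 reached an unadjusted p below 0.05, and 2 did without that tumor, while for basement membrane collagens the count was 2 either way, to be read beside the same shares of all genes. Cell-type markers differed between the PPGL groups as well. Of 10 adrenal cortex markers tested, 9 were called lower in group 1 than in group 2, with a median log2 FC of -6.54. NGFR and GFRA3 of the Schwann and sustentacular cell markers and HAND2 of the chromaffin cell markers were called higher in group 1, and CNN1, DES and TCF21 of the mesenchymal markers lower. Of all genes, 3.97% were called higher in group 1 and 2.95% lower. The part of these markers in the collagen results was not tested. In DESeq2's Wald test, COL5A1, COL8A1, COL14A1, COL24A1 and COL27A1 were called lower in group 1 as well. COL14A1, with -2.24 (FDR-adjusted p = 0.162, SE 0.88) in edgeR's QL test, was called there without PPGL group 1 replicate 2 (-3.25, 0.0607), while without PPGL group 2 replicate 5 it had -1.17 (FDR-adjusted p = 0.323).

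COL22A1 (ENSCAFG00000001178, chromosome 13, 33735656 to 33996401), a chain of tissue junctions, had 99.8 to 416 CPM in NAMs (median 196), 75.3 to 723 in PPGL group 1 (median 288) and 1.35 to 213 in PPGL group 2 (median 23.6). 13 of 19 PPGLs (2 of group 1 and 11 of group 2) lay below every NAM, all but 1 of group 2 among them, while 3 of group 1 lay above. The log2 FC of group 1 against group 2 was 2.97 (FDR-adjusted p = 0.0405, SE 0.77), and 2.85 (FDR-adjusted p = 0.0389) without replicate 11 of group 2. Against NAMs, COL22A1 fell in group 2, with -2.31 (FDR-adjusted p = 0.00464, SE 0.61), and did not pass in group 1, with 0.64 (FDR-adjusted p = 0.49, SE 0.68). Over all PPGLs it was not called (-0.50, FDR-adjusted p = 0.596, SE 0.69). That value was -0.84 without PPGL group 1 replicate 2 and -0.34 without NAM replicate 4. COL23A1 (chromosome 11, 2997021 to 3318867), a transmembrane collagen, had 0.324 to 5.58 CPM in NAMs (median 1.21), 0.201 to 49.0 in PPGL group 1 (median 3.88) and 0 to 3.46 in PPGL group 2 (median 0.652). Replicates 2 and 3 of group 1 were the highest, and the ranges of the groups overlapped. Its log2 FC of group 1 against group 2 was 3.36 (FDR-adjusted p = 0.0359, SE 0.85), and the call was lost without PPGL group 1 replicate 2 (1.92, 0.173) and in the Mann-Whitney U-test. COL23A1 was also called higher in group 1 than in NAMs (2.56, FDR-adjusted p = 0.0127, SE 0.79), but not over all PPGLs (1.35, FDR-adjusted p = 0.211, SE 0.84), where the log2 FC was 0.17 without that same tumor. Whether the call of group 1 against NAMs holds without it was not tested.

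COL25A1 (ENSCAFG00000011361, chromosome 32, 29124996 to 29567481), a transmembrane collagen of neurons, had 0 to 0.415 CPM in NAMs (median 0.227), 0 to 0.0887 in PPGL group 1 (median 0) and 0 to 30.4 in PPGL group 2 (median 0.625). All 7 tumors of group 1 were at or under 3 counts, and replicates 8, 1 and 5 of group 2 were the highest, with 30.4, 12.2 and 9.75 CPM. Replicates 2, 3 and 11 of group 2, with 0.0541, 0.0474 and 0 CPM, lay within the range of group 1. COL25A1 was at least 36.2-fold lower in group 1 than the mean of group 2 (FDR-adjusted p = 0.0239), and at least 18.3-fold without replicate 8 of group 2. For COL25A1, no bound was computed without all 3 of replicates 1, 5 and 8. Its fitted log2 FC of -7.34 is no bound. It met the count filter only with all of group 2 replicates 1, 5, 6, 7, 8, 9 and 12 present, so its call without any of these is not known. With no count filter and all 19 tumors it was called too (FDR-adjusted p = 0.0253). Against NAMs it was called higher in group 2, with 4.55 (FDR-adjusted p = 0.00124, SE 1.02), and with no count filter too (FDR-adjusted p = 0.00165). That value was not tested without the 3 highest tumors. In group 1 it was at least 1.49-fold lower than in NAMs and was not called (FDR-adjusted p = 0.106).

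COL6A5 was lower in group 1 than in group 2, with -4.44 (FDR-adjusted p = 0.0902, SE 1.43), and -2.12 (FDR-adjusted p = 0.198) without replicate 11 of group 2. That COL6A5 call was lost in 10 of 19 leave-out fits, without PPGL group 1 replicate 1 (-4.30), 2 (-4.62), 3 (-4.85), 4 (-4.28), 5 (-4.21), 6 (-4.45), 7 (-4.30), PPGL group 2 replicate 4 (-4.49), 9 (-4.38) or 11 (-2.12), with the log2 FC in brackets. COL21A1 was lower too, with -1.83 (FDR-adjusted p = 0.0764, SE 0.56), and -1.56 (FDR-adjusted p = 0.109) without that tumor. Its call was lost in 7 of 19 fits, without PPGL group 1 replicate 1 (-1.68), 3 (-1.79), 4 (-1.68), 7 (-1.93), PPGL group 2 replicate 4 (-1.61), 5 (-1.74) or 11 (-1.56). In the Mann-Whitney U-test neither COL6A5 nor COL21A1 was called. The levels of both overlapped between the groups: the highest tumor of group 1 had 9.90 CPM of COL6A5 and 5.90 CPM of COL21A1, beside medians of 6.66 and 9.23 in group 2.

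Against NAMs, 39 collagens were tested in each PPGL group with the 3 groups in 1 fit. In PPGL group 1, 10 were called higher than in NAMs, where 21.0% of all 15201 genes were, and 2 lower (COL13A1, COL27A1), where 14.1% were. Those higher were COL1A1, COL4A1, COL4A2, COL4A3, COL4A4, COL5A2, COL7A1, COL11A2, COL15A1 and COL23A1. The median log2 FC was 0.66 (0.66 with COL25A1 at its bound), beside 0.13 for all genes. Without replicate 11 of group 2, which is in neither arm of this comparison but in its fit, 13 were called higher (COL3A1, COL11A1 and COL16A1 as well) and 4 lower (COL8A2 and COL12A1 as well). In PPGL group 2, 20 were called higher than in NAMs, where 18.4% of all genes were, and 2 lower (COL13A1, COL22A1), where 14.5% were. The median log2 FC was 1.17, beside 0.09 for all genes. Without replicate 11 it was 1.02, with 18 higher (not COL6A1 and COL6A3) and 4 lower (COL8A2 and COL27A1 as well). Cell-type markers moved too. In group 1, 10 of 10 adrenal cortex markers were called lower, and 3 of 13 fibroblast markers higher and 3 lower. In group 2, 9 cortex markers were lower and 7 fibroblast markers higher (5, with 2 lower, without replicate 11). Pericyte and smooth muscle markers were 1 higher and 1 lower in group 1, and 5 higher in group 2 (3 without replicate 11). NGFR was higher in group 1 and, with GFRA3, lower in group 2. The part of these markers was not tested.

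Of the 11 fibrillar collagens, 3 were called higher in group 1 and 8 in group 2 than in NAMs (5 and 8 without replicate 11 of group 2, with COL3A1 and COL11A1 gained in group 1), with medians of 0.81 and 2.45, the latter 1.66 without replicate 11. Of the 6 basement membrane collagens, 4 were called higher in group 1 and 2 in group 2, with medians of 1.71 and 0.94; without replicate 11 these were 4 and 2, with medians of 1.71 and 0.81. Of 22 other collagens, 3 were called higher in group 1 and 10 in group 2 (4 and 8 without that tumor), with medians of 0.55 and 1.04, the latter 0.35 without replicate 11. These class counts are to be read beside all genes tested, of which 21.0% were called higher in group 1 and 18.4% in group 2. A call in 1 group and not the other is not a difference between the groups, which the test above addresses. COL4A1 had 1.78 (FDR-adjusted p = 0.000686, SE 0.38) in group 1 and 1.76 (FDR-adjusted p = 0.000436, SE 0.35) in group 2, the latter 1.41 (FDR-adjusted p = 0.000587) without replicate 11. COL4A2 had 1.32 (FDR-adjusted p = 0.0139, SE 0.41) and 1.17 (FDR-adjusted p = 0.0164, SE 0.37), the latter 0.82 (FDR-adjusted p = 0.0498) without that tumor. COL11A2 had 1.96 (FDR-adjusted p = 0.000669, SE 0.42) and 1.98 (FDR-adjusted p = 0.000386, SE 0.39). COL1A1 had 2.14 (FDR-adjusted p = 0.0413, SE 0.82) in group 1 and 4.19 (FDR-adjusted p = 0.000415, SE 0.83) in group 2, the latter 3.01 (FDR-adjusted p = 0.000788) without replicate 11. COL3A1 had 1.55 (FDR-adjusted p = 0.0991, SE 0.73) in group 1 and 3.55 (FDR-adjusted p = 0.000558, SE 0.73) in group 2, the latter 2.4 (FDR-adjusted p = 0.00112) without it.

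The tumor that stood apart weighed on several calls in group 2 against NAMs. COL1A2 had a log2 FC of 2.4 (FDR-adjusted p = 0.00266, SE 0.59), and 1.48 (FDR-adjusted p = 0.00961) without it. For COL5A2 the values were 2.46 (FDR-adjusted p = 0.00142, SE 0.56), and 1.52 (FDR-adjusted p = 0.00337) without, and for COL11A1 4.32 (FDR-adjusted p = 0.00127, SE 0.97), and 2.05 (FDR-adjusted p = 0.00788) without. COL6A5 went from 5.49 (FDR-adjusted p = 0.000434, SE 1.10) to 3.20 (FDR-adjusted p = 0.00101), and COL15A1 from 2.99 (FDR-adjusted p = 0.000399, SE 0.59) to 1.93 (FDR-adjusted p = 0.000438). These 5 kept their calls, as did COL8A1, with 1.81 (FDR-adjusted p = 0.00583, SE 0.49), and 1.10 (FDR-adjusted p = 0.0235) without. COL6A1 and COL6A3 lost theirs: COL6A1 went from 1.32 (FDR-adjusted p = 0.0175, SE 0.43) to 0.87 (FDR-adjusted p = 0.0611) and COL6A3 from 1.74 (FDR-adjusted p = 0.0246, SE 0.59) to 1.15 (FDR-adjusted p = 0.0899). COL24A1, not called over all PPGLs, was called in group 2 with 2.80 (FDR-adjusted p = 0.0158, SE 0.88). COL13A1 fell in both groups, with -2.80 (FDR-adjusted p = 0.000108, SE 0.51) in group 1 and -2.08 (FDR-adjusted p = 0.00032, SE 0.40) in group 2. COL27A1 fell in group 1, with -1.93 (FDR-adjusted p = 0.00117, SE 0.44), and in group 2 had -0.65 (FDR-adjusted p = 0.159, SE 0.36), and -1.06 (FDR-adjusted p = 0.0072) without replicate 11.

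Chains were correlated within each group, as 7 pairs in 3 groups (21 correlations of log2 CPM). The pairs share a molecule or a gene neighborhood, except COL1A1 with COL3A1 and COL1A1 with COL4A1. Permutation p-values came from all 5040 orders in group 1 (exact) and 100000 draws in the others, where 1e-05 is the smallest possible. Of the 21, 14 had an adjusted p (Benjamini-Hochberg over the 21) below 0.05 for Pearson's r and 15 for Spearman's rho. Gene pairs in general were not correlated, so whether these counts exceed theirs was not tested. For COL1A1 with COL1A2, r was 0.88 in NAMs (p = 0.00018), 0.97 in group 1 (p = 0.00139) and 0.97 in group 2 (p = 3e-05). COL1A1 with COL3A1 gave 0.84 in NAMs (p = 0.00233), 0.97 in group 1 (p = 0.00198) and 0.99 in group 2 (p = 1e-05). COL4A1 with COL4A2 gave 0.87 in NAMs (p = 0.00089), 0.72 in group 1 (p = 0.0768) and 0.98 in group 2 (p = 1e-05). COL1A1 with COL4A1, of different classes, gave 0.87 in NAMs (p = 0.0013), 0.49 in group 1 (p = 0.272) and 0.94 in group 2 (p = 1e-05). This last correlation did not pass in group 1. COL3A1 with its neighbor COL5A2 gave 0.55 in NAMs (p = 0.0965), 0.09 in group 1 (p = 0.841) and 0.86 in group 2 (p = 0.00038). COL4A3 with COL4A4, whose models overlap, gave 0.83 in NAMs (p = 0.00432), 0.94 in group 1 (p = 0.00833) and 0.53 in group 2 (p = 0.0757). COL4A5 with COL4A6 gave 0.60 in NAMs (p = 0.0679), 0.74 in group 1 (p = 0.0603) and 0.76 in group 2 (p = 0.00464). Without the 2 samples of a group furthest from the median, r in NAMs was 0.59 for COL1A1 with COL3A1, 0.19 for COL3A1 with COL5A2, 0.72 for COL1A1 with COL4A1 and -0.12 for COL4A5 with COL4A6. In group 1 it was then 0.55 for COL4A1 with COL4A2, 0.43 for COL4A5 with COL4A6, 0.26 for COL1A1 with COL4A1 and 0.34 for COL3A1 with COL5A2, and in group 2 it was 0.69 for COL3A1 with COL5A2 and 0.71 for COL4A3 with COL4A4.

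Genes that modify, process, cross-link or bind collagens were read as 7 lists of 71 genes, 64 of them found and 62 tested between PPGLs and NAMs. In all, 21 higher and 12 lower were called (33.9% and 19.4%), beside 22.3% and 15.2% of all genes tested. Without replicate 11 of group 2 these were 18 and 16. The counts of each list below are to be read beside the same 22.3% and 15.2% of all genes. Brackets hold the log2 FC and FDR-adjusted p of edgeR's QL test in PPGLs against NAMs. Of 7 procollagen processing genes, 4 were called higher and 1 lower, with a median of 1.34, and 0.74 without replicate 11 of group 2. ADAMTS2, the protease that removes the amino-terminal propeptide, had 4.43 to 14.6 CPM in NAMs (median 9.26), 15.7 to 143 in PPGL group 1 (median 63.4) and 24.7 to 166 in PPGL group 2 (median 55.3). All 19 of 19 PPGLs lay above every NAM, and its log2 FC was 2.92 (FDR-adjusted p = 8.46e-07, SE 0.36). The next-largest changes called there were TLL2 (2.67, 0.00112), PCOLCE2 (2.02, 0.000261) and, lower, TLL1 (-1.47, 0.0404). Of 6 cross-linking oxidases, 3 were called higher, LOXL2 (2.29, 0.000127), LOXL1 (1.04, 0.000591) and LOXL3 (0.86, 0.0235), and 1 lower, PXDN (-0.81, 0.0281), with a median of 0.95, and 0.63 without that tumor. Of 8 collagen receptors, 5 were called higher, led by ITGA2 (1.59, 0.00533), DDR1 (1.42, 4.35e-05), ITGA10 (1.34, 0.00333) and ITGA1 (1.21, 0.0026), with a median of 0.85.

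Of 14 collagen hydroxylases and glycosyltransferases, 4 were called higher, and 3 lower, with a median of 0.12, and without replicate 11 of group 2 these counts were 3 and 4. The largest changes called there were P3H2 (-2.56, 2.69e-05), COLGALT2 (-1.56, 0.00486), P4HA2 (1.16, 0.00282) and CRTAP (-0.93, 0.00185). Of 5 chaperone and export genes, KDELR3 (1.24, 0.0201) was called higher, and the median was -0.09. Of 8 fibril-binding proteoglycans and SPARC, LUM (2.43, 0.0249) was called higher and OGN (-1.87, 0.0171) lower, with a median of 0.20. Without replicate 11 of group 2, LUM had 0.95 (FDR-adjusted p = 0.144) and was not called, 3 of this list were lower and its median was -0.51. LUM also counts among the fibroblast markers. Of 14 laminins, nidogens and heparan sulfate proteoglycans, the other parts of basement membranes, 3 were called higher and 6 lower, with a median of -0.37, and without that tumor 2 and 7. AGRN was below every NAM in 19 of 19 PPGLs, with a log2 FC of -2.59 (FDR-adjusted p = 6.67e-08, SE 0.26), next to LAMA2 (-2.38, 5.28e-05), LAMC3 (-2.36, 0.000215) and, higher, LAMB3 (2.11, 0.0342), which was not called without that tumor. COL4A1 and COL4A2 thus rose while several laminin chains fell. The laminin chain LAMA4 and the nidogen NID1 were also called higher, with and without replicate 11 of group 2.

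Over the 7 lists, 62 genes were tested against NAMs by group, with 12 higher and 11 lower in PPGL group 1 (19.4% and 17.7%, beside 21.0% and 14.1% of all genes). In PPGL group 2, 23 higher and 8 lower were called (37.1% and 12.9%, beside 18.4% and 14.5% of all genes), and 17 higher and 12 lower without replicate 11. By list, those higher in group 1 were 3 (processing), 2 (oxidases), 2 (receptors), 2 (hydroxylases), 1 (chaperones), 2 (laminins), and those lower 1 (processing), 2 (hydroxylases), 1 (chaperones), 3 (proteoglycans), 4 (laminins). In group 2, those higher were 6 (processing), 4 (oxidases), 5 (receptors), 4 (hydroxylases), 1 (chaperones), 1 (proteoglycans), 2 (laminins), and those lower 3 (hydroxylases), 5 (laminins). Without replicate 11, those higher in group 2 were 4 (processing), 2 (oxidases), 5 (receptors), 3 (hydroxylases), 1 (chaperones), 2 (laminins), and those lower 1 (processing), 1 (oxidases), 3 (hydroxylases), 1 (proteoglycans), 6 (laminins). Between the PPGL groups, LAMC3 was the 1 gene called of 62 tested, lower in group 1 with -2.75 (FDR-adjusted p = 0.00555, SE 0.47). This was 1.61% called lower and 0 higher, beside 2.95% and 3.97% of all genes.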

How the data were processed

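The authors' deposited exon count table served as the count source: they aligned reads to CanFam3.1 with STAR, and the sources name HTSeq for counting while the table is named after featureCounts. Levels were TMM-normalized. Differences were tested with edgeR 4.0.16 (QL F test; filter of 10 counts per gene and 15 in total) under R 4.3.3, with DESeq2 1.42.0 as the other tool; summaries and figures used Python 3.11.15, numpy 2.4.6, pandas 2.3.3 and matplotlib 3.10.9. Collagens were picked by gene name, and every collagen called in at least 1 of 4 comparisons is described with the lowest, median and highest value per group; other members are given by range or count. From each list of partner genes, up to 4 called genes of the largest change were named, and from marker lists those called. Members and lists were chosen with earlier results of these data known. Marker and partner lists are by general knowledge, and PPIB, FKBP14, CTAGE5, MIA2, ADAMTS3, LAMA5, LAIR1, CYP11B2, CHGA and CD14 were not found by name. Zero counts of some marker genes are not reported here. Folds against a group with all libraries at or under 3 counts are lower bounds. Alternatives were other scalings, filters and tests, each sample left out, and, added after the data were seen, the fits against NAMs without replicate 11 of PPGL group 2 and, later, sums without COL4A2 or THY1 and the COL25A1 bound without replicate 8.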

Additional observations from a re-analysis of the deposited data

Results flagged for a closer look

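Within-group outliers were sought in 37 collagens in NAMs and PPGL group 1, or 74 groups of values, by the gap to the nearest value over the range, at a chance of 1 in 20 each; PPGL group 2 with 12 samples was not tested. There were 2. COL4A5 in NAM replicate 10 was the lowest, at a log2 CPM of 2.93 (7.56 CPM) against 3.86 (14.4 CPM) in the nearest NAM. COL12A1 in NAM replicate 3 was the lowest, at 4.92 (30.2 CPM) against 5.77 (54.6 CPM). Neither gene was called between PPGLs and NAMs, with or without these libraries. The log2 FC of PPGL group 1 against group 2 passed the test for COL6A5 (-4.44), COL21A1 (-1.83), COL22A1 (2.97), COL23A1 (3.36) and COL25A1 (-7.34, a fitted value that is no bound).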

How the results depend on the processing

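Most counts and log2 FCs kept their call and sign under the alternatives. Collagens called higher in PPGLs than in NAMs (19) were 13 with the sample number as block. They were 13 by the Mann-Whitney U-test and 16 to 20 with each sample left out. Those called lower (2) were 4 with the block, 5 by the Mann-Whitney U-test and 1 to 3 with each sample left out. Of all 14766 genes tested there, edgeR's QL test as above called 3295 higher and 2246 lower. With the block these were 2273 and 2380, and by the Mann-Whitney U-test 2824 and 2920. Higher in PPGL group 1 than in group 2 (2): 0 with the block (1 at an unadjusted p below 0.05), 1 by the Mann-Whitney U-test, 1 to 3 with samples left out. Lower there (3): 8 by DESeq2's Wald test, 0 with the block (5 at an unadjusted p below 0.05), 1 by the Mann-Whitney U-test. That count was 1 at an FDR-adjusted p below 0.05 and 1 to 3 with samples left out. These counts are to be read beside all 14666 genes tested between the groups. Of those, edgeR's QL test as above called 582 higher and 433 lower in group 1, and DESeq2's Wald test 916 and 877. With the block these were 10 and 37, and by the Mann-Whitney U-test 161 and 243. In group 1 against NAMs, higher (10) were 14 by DESeq2's Wald test, 15 with only these groups and 6 with the block, and lower (2) were 5 by DESeq2's Wald test, 5 with the block, and 4 with only these groups or without PPGL group 2 replicate 11. Of all 15201 genes tested in group 1 against NAMs, edgeR's QL test as above called 3194 higher and 2137 lower. By DESeq2's Wald test these were 3341 and 2497, and with the block 1921 and 2015. With only these groups they were 3071 and 2147 of 14587. In group 2 against NAMs, higher (20) were 15 with the block and 18 without replicate 11. Lower (2) were 3 with the block and 4 without replicate 11. The block called 1987 of all genes higher and 2193 lower there, beside 2798 and 2207 without it. Tumors of group 1 with fibrillar over basement membrane sums (3) were 5 without COL4A2, those of group 2 with fibroblast markers above every NAM (11) were 6 without THY1, and the COL25A1 bound was 18.3-fold without replicate 8. Equal sample numbers do not mark pairing: their r was -0.232 to 0.251, and 2 of 10 NAM and group 2 samples, and none of the others, matched best with their own number. Signs turned in PPGLs against NAMs by library size only (COL4A6 0.065), DESeq2's Wald test (COL12A1 -0.50) and the block (COL2A1 -0.37, COL10A1 -1.13, COL12A1 -0.65). In group 1 against group 2 they turned by DESeq2 size factors (COL11A2 -0.00596), library size only (COL7A1 0.012), DESeq2's Wald test (COL11A2 -0.00521), no filter (COL11A2 -0.0114) and the block (COL5A2 0.17, COL5A3 -0.16, COL6A1 0.0077, COL6A3 0.47, COL11A2 -0.57, COL15A1 0.33, COL20A1 -0.72). With each sample left out in turn, log2 FCs that changed sign ranged as follows: COL2A1 -0.19 to 0.61, COL4A6 -0.34 to 0.0602, COL10A1 -0.19 to 0.42, COL12A1 -0.49 to 0.69 in PPGLs against NAMs; COL4A1 -0.19 to 0.37, COL4A2 -0.15 to 0.51, COL5A2 -0.88 to 0.27, COL5A3 -0.25 to 0.15, COL7A1 -0.35 to 0.10, COL9A1 -1.03 to 0.0649, COL11A2 -0.62 to 0.19, COL20A1 -1.05 to 1.14 in group 1 against group 2. In group 2 against NAMs, where only replicate 11 was left out, COL12A1 turned from 1.08 to -0.24. Scaling by library size only moved the all-gene median of group 1 against NAMs from 0.13 to 0.24. The groups are small, 7 and 12 tumors, and the marker genes are no cell counts.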
